A study of Mus musculus with 18 samples.

Results

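The comparison described here sets the cervical spinal cord of mutant mice against that of control mice at 10 weeks of age. Its members are 5 of the 18 arrays of the study, chosen by their titles: 3 arrays of mutant cord and 2 of control cord. Control replicate 1 was left out, because its values did not follow the probe sets they are listed under.

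The study asked how a motor region that is spared in amyotrophic lateral sclerosis (ALS), the oculomotor nucleus, differs from the spinal cord, which is affected. Total RNA of mice of an ALS model was measured on Affymetrix mouse 430A arrays, with 3 arrays for each of 6 groups. The groups were mutant oculomotor nucleus of 6 weeks, mutant spinal cord of 6 weeks, and mutant and control samples of both regions at 10 weeks. The labels name no mutation, no strain and no sex, and do not say whether animals were pooled. The arrays analysed here hold no control of 6 weeks. The design text calls the replicates of a group independent, but neither it nor the labels say that they are different animals. The p-values therefore cover the spread among these arrays, which may be technical.

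In ALS the motor neurons of the spinal cord die, while microglia, the resident macrophages of the nervous system, and astrocytes change their state around them. Microglia sense neurons through receptors such as Cx3cr1, take up antibody-coated material through Fc receptors, and make the complement proteins C1q, which tag material for removal. In whole tissue, fewer cells of a type and less RNA per cell cannot be told apart.

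The 5 arrays correlated with each other across probe sets at 0.974 to 0.983, while the array left out correlated with the 17 others at 0.0104 to 0.0143. Median signals of the 5 arrays lay between 215 and 226. The tissue label held: the summed signal of 31 Hox genes, which mark position along the body axis, was 10680 to 11840 on the cord arrays of 10 weeks and 1606 to 1742 on the oculomotor arrays of that age. The motor neuron gene Slc18a3, the vesicular acetylcholine transporter, was present at 1022 and 1182 in controls and 1252, 1051 and 977 in mutants. Mutant replicate 1 stood apart in its bacterial spike controls and had the lowest 3′ to 5′ ratio of the Gapdh control, 0.677, against 0.782 and 0.772 in the other mutants and 0.816 and 0.798 in controls. Xist, the RNA that coats the inactive X chromosome, read 561 on control replicate 3, against 153 on the other control and 160 to 185 on the mutants. On the oculomotor control arrays it read 124, 157 and 496, again highest on replicate 3. The labels do not say whether cord and oculomotor samples of 1 number came from the same animals.

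Single probe sets of Commd1 and Pja2 were higher in mutant cord and a single probe set of Celf4 was lower. Other probe sets of these genes, given below, did not all follow. Only these single probe sets, 3 in all, passed the threshold. It was an adjusted p under 0.05 in limma over all 13575 probe sets tested (0.0221%, with 0.0147% higher and 0.00737% lower). Without adjustment, 1595 probe sets (11.7%) had a p under 0.05, of which 899 (6.62%) were higher in mutants and 696 (5.13%) lower. The central 90% of log2 fold changes ran from -0.34 to 0.39, and the median standard error (SE) was 0.15. All log2 fold changes are of signal + 25, mutant over control, which understates the change of dim genes.

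Commd1 encodes a protein that takes part in copper handling, endosomal sorting and the degradation of NF-kB. Its probe set 1424122_s_at read 387 and 416 on the control arrays and 1246, 1174 and 1058 on the mutant arrays. The groups did not overlap, and the lowest mutant array lay above the higher control array by more than any distance within a group. The log2 fold change was 1.47 ± 0.20 (SE, n = 3 and 2; 2.77-fold; limma adjusted p = 0.0072). Mutant cord of 6 weeks read 398, 466 and 585, near the controls of 10 weeks. The change from 6 to 10 weeks in mutant cord, which shares the 10-week mutant arrays, was 1.23 ± 0.18 (limma adjusted p = 0.0029; 2.76% of probe sets called). In the oculomotor nucleus, which shares no array with the cord but may share animals, controls read 457, 309 and 404 and mutants 739, 1191 and 928 (1.23 ± 0.18, limma adjusted p = 0.0024). There the 6-week mutants, at 759, 1076 and 997, already lay above the controls of 10 weeks. The other Commd1 probe set, 1424121_at, was too dim to be tested and read 129 and 147 in controls and 112, 123 and 103 in mutants. The 2 probe sets of the gene lay in opposite directions.

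Pja2 encodes praja2, a ubiquitin ligase known for degrading regulatory subunits of protein kinase A. Its probe set 1424442_a_at read 2655 and 3065 on control arrays and 4289, 5308 and 5506 on mutant arrays, without overlap. The log2 fold change was 0.81 ± 0.12 (limma adjusted p = 0.013). Another probe set of the gene, 1427148_at, lay in the opposite direction: 995 and 1090 in controls against 734, 667 and 569 in mutants, a log2 fold change of -0.65 ± 0.14 (limma adjusted p = 0.099). The last, 1452328_s_at, read 1191 and 1384 in controls and 1322, 910 and 852 in mutants, so that its groups overlapped (-0.34 ± 0.16, limma adjusted p = 0.41; -0.53 without mutant replicate 1 and -0.22 without mutant replicate 3). In the oculomotor nucleus all 3 were called, in the same directions, at 0.75, -0.67 and -0.89. Mutant cord of 6 weeks read 5017, 4178 and 4609 on 1424442_a_at, within or near the range of the 10-week mutants.

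Celf4 encodes a neuronal RNA-binding protein that controls the stability and translation of many synaptic messages. Its probe set 1426929_at read 1048 and 981 on control arrays and 706, 566 and 555 on mutant arrays. The groups did not overlap, and the log2 fold change was -0.72 ± 0.12 (1.65-fold lower, limma adjusted p = 0.033). Mutant cord of 6 weeks, at 608, 657 and 656, lay with the 10-week mutants. In the oculomotor nucleus 1426929_at was also lower, by 0.51 on the log2 scale (limma adjusted p = 0.020). The 2 other probe sets of Celf4 differed less, at -0.29 ± 0.14 for 1426930_at and -0.05 ± 0.09 for 1452240_at. In the oculomotor nucleus they lay at 0.05 ± 0.12 and -0.09 ± 0.08.

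**Figure D1:**
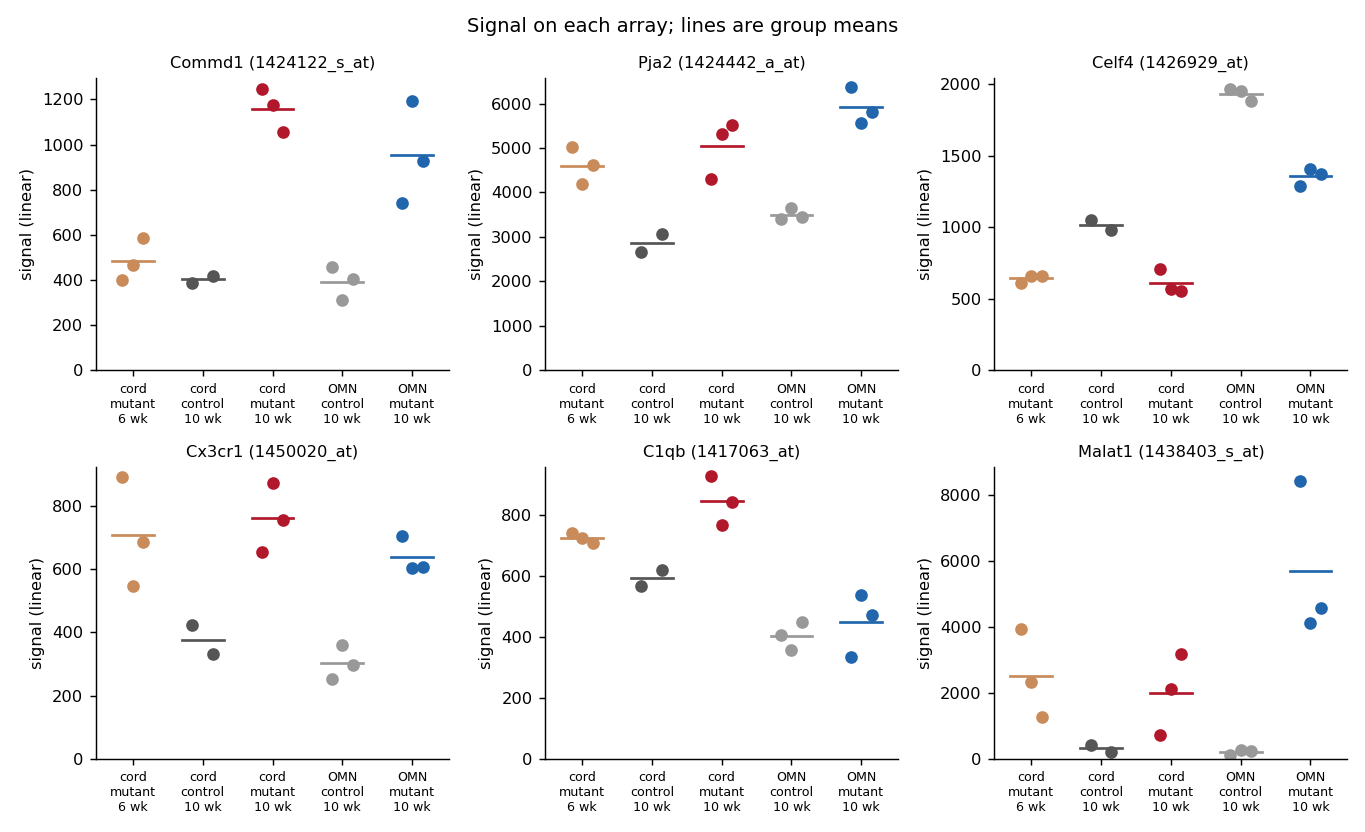
Signal (linear scale, from 0) of 6 probe sets on each array, by region, genotype and age (OMN, oculomotor nucleus; wk, weeks); points are arrays and lines group means. Commd1, Pja2 and Celf4 were called in spinal cord, Cx3cr1, C1qb and Malat1 were not; the 3 mutant cord arrays lay outside the range of both control cord arrays in every panel, and Commd1 on the 6-week mutant cord arrays (398 to 585) lay near the controls.

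The calls rested on few arrays. With control replicate 2, control replicate 3 or mutant replicate 2 left out, none of 13575 probe sets was called in limma, and 1182, 1222 and 1503 had an unadjusted p under 0.05. Without mutant replicate 3 only Commd1 was called. The log2 fold changes themselves stayed within 1.42 to 1.53 for Commd1, 0.70 to 0.92 for Pja2 and -0.83 to -0.66 for Celf4 when single arrays of the comparison were left out. Without mutant replicate 1, 51 probe sets were called, 37 higher and 14 lower, among them these 3. Fitted on the 5 arrays alone, without the other 12 for the estimate of the spread, Pja2 and Celf4 were not called (limma adjusted p = 0.25 and 0.35), nor were they without a trend in eBayes (0.069 for each).

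The genes closest to the threshold were Map3k7 and Yipf1, named after their values were seen, and Cx3cr1. Map3k7 encodes TAK1, a kinase that relays inflammatory signals to NF-kB. Its probe set 1425795_a_at read 283 and 356 in controls and 470, 553 and 625 in mutants (0.74 ± 0.13, limma adjusted p = 0.080). The 5 probe sets of Map3k7 ran from -0.55 to 0.74. Lowest was 1426627_at, too dim to be tested, at 124 and 128 in controls and 89.6, 86.1 and 61.5 in mutants. The other tested one, 1455441_at, lay at 0.24 ± 0.17, with overlap of the groups. Yipf1, a membrane protein of the Golgi, read 1079 and 1235 in controls and 2264, 1928 and 1983 in mutants (0.82 ± 0.15, limma adjusted p = 0.088). For Yipf1 and for 1425795_a_at of Map3k7 the arrays were separated by genotype. In the oculomotor nucleus the Map3k7 difference was 0.69 (limma adjusted p = 0.0058) and that of Yipf1 0.08 (0.84). With 1 probe set per gene, and so fewer tests, both genes and Cx3cr1 had an adjusted p of 0.048.

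Genes of microglia lay higher in mutant cord as a group, by small amounts, and none was called. Of 39 genes listed for microglia and macrophages, 34 were on the array and 23 passed the filter on dim probe sets. The 23 tested genes all had a log2 fold change above 0, against 52.3% of all genes tested, and their median was 0.27, against 0.01 over all genes. Unadjusted p was under 0.05 for 7 of them, all higher (all genes: 6.62% higher and 4.65% lower), and for 11 every mutant array lay above both control arrays (all genes: 15%). With no filter, 32 of 34 lay above 0, with a median of 0.24, against 58.2% and 0.05 over all genes. The summed signal of the 34 genes was 12150 and 13620 on the control arrays and 14530 to 17640 on the mutant arrays. On the 6-week mutant cord arrays it was 13590 to 14550, which spans the gap between the 10-week groups.

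Cx3cr1, the fractalkine receptor through which microglia sense neurons, had the largest difference of the list. Its probe set 1450020_at read 422 and 332 in controls and 654, 874 and 756 in mutants. The groups did not overlap, the log2 fold change was 0.97 ± 0.18, and the limma adjusted p of 0.088 missed the threshold. It is the one microglial gene here that was also called in the oculomotor nucleus (1.02 ± 0.16, limma adjusted p = 0.0033), where controls read 254, 360 and 298 and mutants 706, 605 and 606. Mutant cord of 6 weeks read 892, 548 and 687. The second probe set of Cx3cr1, too dim to be tested, read 112 and 98 in controls and 157, 221 and 176 in mutants.

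Slc2a5, the fructose transporter of microglia, read 136 and 126 in controls and 245, 190 and 196 in mutants (0.59 ± 0.17). Fcrls, an Fc receptor-like molecule of microglia, read 152 and 204 in controls and 335, 231 and 276 in mutants (0.59 ± 0.18). Cd68, a lysosomal glycoprotein of phagocytes, read 185 and 139 in controls and 286, 228 and 200 in mutants (0.49 ± 0.18). For all 3 genes, named for their small p, every mutant array lay above both control arrays (all genes: 15%). Their limma adjusted p lay between 0.19 and 0.32. Csf1r, the growth factor receptor on which microglia depend, read 2861 and 2399 in controls and 3668, 3034 and 2872 in mutants (0.27 ± 0.11). Without mutant replicate 1 the Csf1r difference was 0.17 and without control replicate 3 it was 0.15, and that of Cd68 was 0.31 without control replicate 3. The homeostatic markers Tmem119 and P2ry12 differed less, at 0.12 ± 0.13 and 0.10 ± 0.13.

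Complement components were among the higher genes. Of 24 genes listed, 21 were on the array and 10 were tested, with a median of 0.30 and 5 at an unadjusted p under 0.05, all higher (all genes: 6.62% higher). That count was 3 without control replicate 2 and 3 without mutant replicate 2. With no filter the median of the 21 was 0.22. C1qa, C1qb and C1qc encode the chains of C1q, which starts the classical pathway. C1qb read 565 and 619 in controls and 926, 767 and 842 in mutants on 1417063_at (0.49 ± 0.15, limma adjusted p = 0.23). C1qa read 1028 and 907 in controls and 1371, 1364 and 1079 in mutants (0.38 ± 0.16), and C1qc 466 and 585 against 768, 704 and 707 (0.46 ± 0.15). For all 3 chains every mutant array lay above both control arrays. The same held for 5 of the 10 tested genes of the list (all genes: 15%), of which those with the smallest p are named. The C1qc difference was 0.30 without control replicate 2. C3ar1, the receptor of the C3a fragment, read 121 and 122 in controls and 227, 183 and 172 in mutants (0.57 ± 0.19). The other C1qb probe sets had log2 fold changes of 0.77 ± 0.21 (1437726_x_at) and 0.06 ± 0.21 (1434366_x_at). The inhibitors Serping1 and Cd59a lay at 0.03 ± 0.14 and -0.06 ± 0.16.

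Fc receptors bind the constant part of antibodies. The Fc receptor list, which also covers genes of their signalling, had 5 tested genes of 9 listed, with a median of 0.37. Of the 5, 2 had an unadjusted p under 0.05, both higher (all genes: 6.62% higher). With no filter the median of 7 was 0.29. The activating receptor gene Fcgr3 read 149 and 134 in controls and 244, 195 and 273 in mutants (0.64 ± 0.21, limma adjusted p = 0.26). The inhibitory receptor gene Fcgr2b read 450 and 458 in controls and 947, 663 and 493 in mutants (0.55 ± 0.20). Mutant replicate 1 was the highest mutant array for 3 of the 5 genes (60%). Without it the Fcgr2b difference was 0.32, as was the median of the list, and 1 gene had an unadjusted p under 0.05. The median was 0.56 without control replicate 3. Fcgrt, the neonatal Fc receptor, lay at 0.00 ± 0.15.

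The size of the microglial difference moved with mutant replicate 1. That array gave the highest of the 3 mutant values for 15 of the 23 microglial genes (65.2%), against 36.5% of all genes tested. Without it the median of the list was 0.17, with 5 genes at an unadjusted p under 0.05 and Cx3cr1 called at 1.07 (limma adjusted p = 0.021). Without the other arrays in turn the median ran from 0.24 to 0.34. In the oculomotor nucleus the same 23 genes had a median of 0.04, with 2 higher and 1 lower at an unadjusted p under 0.05 (all genes: 6.76% higher and 5.77% lower). The difference between the regions was not called for any of them in limma.

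**Figure D2:**
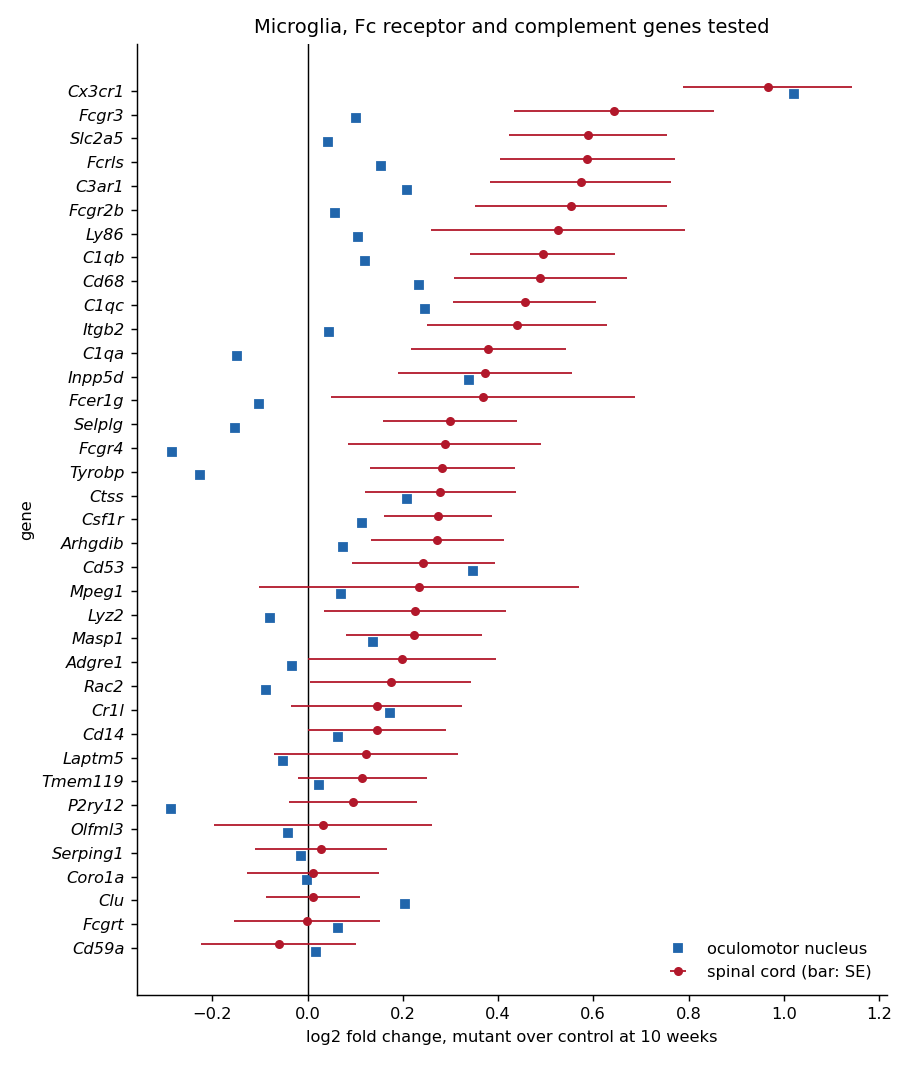
Log2 fold change of mutant over control at 10 weeks (horizontal axis) for each tested gene of the microglia, Fc receptor and complement lists (vertical axis), with circles and SE bars for spinal cord and squares for the oculomotor nucleus. Cx3cr1 stood at 0.97 in cord and 1.02 in the oculomotor nucleus; most other genes lay to the right of 0 in cord.

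The promoters of Cx3cr1, C1qb and Fcgr3 are shown because they are named examples of the microglial, complement and Fc receptor lists, chosen after the values were seen. Each window runs from 250 bases before to 50 after the start of transcription in RefSeq (assembly GRCm38.p6). Capitals mark GAGGAA or its reverse complement TTCCTC, the PU box bound by PU.1, a factor of myeloid cells; both strands were searched. Cx3cr1 lies at chr9:120068247-120068546 (minus strand), C1qb at chr4:136886151-136886450 (minus strand) and Fcgr3 at chr1:171059354-171059653 (minus strand).
Cx3cr1: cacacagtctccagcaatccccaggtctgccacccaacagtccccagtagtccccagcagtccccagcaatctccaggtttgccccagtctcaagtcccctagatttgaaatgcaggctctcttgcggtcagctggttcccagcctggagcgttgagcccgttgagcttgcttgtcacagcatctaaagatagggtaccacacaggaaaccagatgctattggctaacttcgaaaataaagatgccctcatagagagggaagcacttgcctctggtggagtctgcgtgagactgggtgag
C1qb: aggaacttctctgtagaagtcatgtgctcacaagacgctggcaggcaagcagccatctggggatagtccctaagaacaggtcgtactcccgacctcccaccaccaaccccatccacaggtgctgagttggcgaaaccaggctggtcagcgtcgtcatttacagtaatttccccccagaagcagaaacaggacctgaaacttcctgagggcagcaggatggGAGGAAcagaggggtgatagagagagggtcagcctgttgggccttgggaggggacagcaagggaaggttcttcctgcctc
Fcgr3: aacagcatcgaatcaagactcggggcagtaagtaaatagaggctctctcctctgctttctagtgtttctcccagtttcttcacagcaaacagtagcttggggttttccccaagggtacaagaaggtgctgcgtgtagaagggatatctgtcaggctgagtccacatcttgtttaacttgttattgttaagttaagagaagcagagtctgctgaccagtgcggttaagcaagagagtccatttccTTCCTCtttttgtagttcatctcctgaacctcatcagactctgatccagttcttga
The C1qb and Fcgr3 windows hold 1 match each and the Cx3cr1 window none. Of all 32851 promoter windows in the RefSeq table, 28.3% hold the motif. Of the 29 windows of the 25 tested microglial, Fc receptor and complement genes that matched the table by symbol (of 37), 13 hold it (44.8%). A match is a description of these letters and no binding was measured.

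Other immune lists were described in the same way. The list of disease-associated microglia, genes that microglia raise in mouse models of neurodegeneration, had 15 tested genes of 27 with a median of 0.16 and 4 at an unadjusted p under 0.05, all higher (all genes: 6.62% higher). Mutant replicate 1 was the highest mutant array for 9 of the 15 (60%). Without it the median was 0.11 with 1 gene at an unadjusted p under 0.05, and with the Gapdh ratio as a covariate the median was 0.13 with 0 in limma. Without control replicate 3, and without mutant replicate 2, there were 2 such genes. With no filter the median of 25 was 0.28. The tested member with the largest difference was Ccl4, a chemokine, at 166 and 154 in controls and 447, 304 and 181 in mutants (0.78 ± 0.23, limma adjusted p = 0.23; 0.50 without mutant replicate 1). Apoe, the main lipid carrier of the brain, lay at 0.14 ± 0.14 and Ctsb, a lysosomal protease, at 0.16 ± 0.08. Cytokine and NF-kB genes had a median of 0.25 over 10 tested, with 3 higher at an unadjusted p under 0.05 (all genes: 6.62% higher). That count was 1 without control replicate 3 and 1 without mutant replicate 3. This list and that of disease-associated microglia share their largest value, 0.78. Nfkbia, the NF-kB inhibitor, lay at 0.31 ± 0.12 and Il1b at 0.35 ± 0.16 (0.21 without control replicate 3). Antigen presentation had a median of -0.10 over 11 genes, which was -0.02 without mutant replicate 2, -0.04 without control replicate 3 and -0.18 without mutant replicate 1. Cd74, the chaperone of MHC class II, read 789 and 668 in controls and 567, 602 and 469 in mutants, without overlap (-0.40 ± 0.14, limma adjusted p = 0.30). Interferon response genes had a median of -0.01 over 16.

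No gene of astrocytes, oligodendrocytes or motor neurons was called in limma. Gfap, the intermediate filament of astrocytes, read 9062 and 8638 in controls and 10697, 11156 and 7481 in mutants, so the groups overlapped (0.12 ± 0.23). Reactive astrocyte genes had a median of 0.23 over 8 tested, none with an unadjusted p under 0.05. Genes of astrocyte identity had a median of 0.10 over 19, with 3 higher and 1 lower at an unadjusted p under 0.05 (all genes: 6.62% higher and 4.65% lower). Among them the potassium channel gene Kcnj10 lay at 0.31 ± 0.11, the transcription factor gene Sox9 at 0.54 ± 0.23 and glutamine synthetase, Glul, at -0.32 ± 0.13. Each of these 3 separated the genotypes (all probe sets tested: 27.5% without overlap), with limma adjusted p above the threshold. The Sox9 difference was 0.25 without control replicate 2 and 0.82 without control replicate 3.

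Genes of oligodendrocytes and myelin had a median of -0.01 over 22 tested. At an unadjusted p under 0.05, 1 was higher and 1 lower (all genes: 6.62% higher and 4.65% lower). Adamts4, a protease of mature oligodendrocytes, read 546 and 592 in controls and 244, 452 and 448 in mutants (-0.59 ± 0.20; -0.32 without mutant replicate 1), while Mobp, a myelin protein, lay at 0.29 ± 0.12. The 16 tested genes of motor neurons and acetylcholine transmission had a median of 0.05, and none had an unadjusted p under 0.05 in either direction. The neurofilament gene Nefl lay at 0.04 ± 0.10 and the peripherin gene Prph at 0.02 ± 0.22.

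Neuronal lists lay close to or a little below 0. Inhibitory transmission had a median of 0.02 over 12 genes, with 2 lower at an unadjusted p under 0.05 (all genes: 4.65% lower). These were Gphn, the scaffold gephyrin (-0.36 ± 0.11), and Slc32a1, the vesicular transporter of GABA and glycine (-0.23 ± 0.10). Dorsal horn and sensory peptide genes had a median of -0.11 over 13, with the neurokinin receptor gene Tacr3 at -0.52 ± 0.16 and the substance P gene Tac1 at -0.48 ± 0.21. Tac1 read 1704 and 1467 in controls and 1105, 1064 and 1214 in mutants, without overlap. Glutamate receptors and transporters had a median of -0.13 over 7. Among synaptic vesicle genes, with a median of 0.05 over 20, Cplx1 lay at 0.46 ± 0.14 and Vamp2 at -0.30 ± 0.12. Among RNA-binding proteins, with a median of -0.07 over 32, the splicing factor gene Rbfox2 lay at 0.59 ± 0.16 and Son at -0.35 ± 0.12.

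Sod1, mutated in some families with ALS and in several mouse models, did not separate the genotypes. It read 6634 and 6493 in controls and 5345, 7205 and 7400 in mutants, a log2 fold change of 0.00 ± 0.13 (limma adjusted p = 0.99). Its second probe set lay at 0.04 ± 0.21. Among 19 tested genes of copper, metallothionein and iron handling the median was 0.07, with Commd1 the 1 called. Fth1, the ferritin heavy chain, lay at 0.38 ± 0.14 and the copper transporter gene Slc31a2 at 0.52 ± 0.21. Both moved with single control arrays: Slc31a2 was 0.11 without control replicate 2 and 0.93 without control replicate 3, and Fth1 was 0.61 and 0.15. Atox1, a copper chaperone, had 2 tested probe sets in opposite directions, 0.20 ± 0.12 for 1460639_a_at and -0.50 ± 0.10 for 1415760_s_at. Of the 8 tested genes of the COMMD family and its partners, Commd9 came after Commd1 with 390 and 430 in controls and 652, 548 and 479 in mutants (0.42 ± 0.17).

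Antioxidant enzymes had a median of -0.05 over 22 tested, with 3 lower at an unadjusted p under 0.05 and none higher (all genes: 4.65% lower and 6.62% higher). Sod2, the mitochondrial superoxide dismutase, read 2026 and 1764 in controls and 1618, 1486 and 1696 in mutants (-0.24 ± 0.10; -0.14 without control replicate 2). The 74 tested genes of the respiratory chain had a median of -0.01, with 4 higher and 1 lower at an unadjusted p under 0.05, shares no larger than those over all genes. Heat shock proteins and chaperones had a median of 0.03 over 25, proteasome subunits -0.03 over 35, endoplasmic reticulum stress genes -0.02 over 19 and autophagy genes 0.01 over 15. None of these 5 lists held a called gene in limma. At an unadjusted p under 0.05, each of the last 4 had 1 gene higher (all genes: 6.62% higher and 4.65% lower). The proteasome list had 3 lower, and the chaperone and endoplasmic reticulum stress lists 1 lower each. Meningeal and fibroblast genes, markers of the coverings of the cord, had a median of -0.09 over 19. Of these, 3 lay above 0 and 16 below (all genes: 52.3% above 0). At an unadjusted p under 0.05, 3 were lower and none higher (all genes: 4.65% lower and 6.62% higher). Their summed signal was 23160 and 27120 on control arrays and 22090 to 27450 on mutant arrays. Dcn, a proteoglycan of connective tissue, lay at -0.43 ± 0.17 (-0.24 without control replicate 2) and Aldh1a2 at -0.52 ± 0.22; their part in the other results was not tested.

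**Figure D3:**
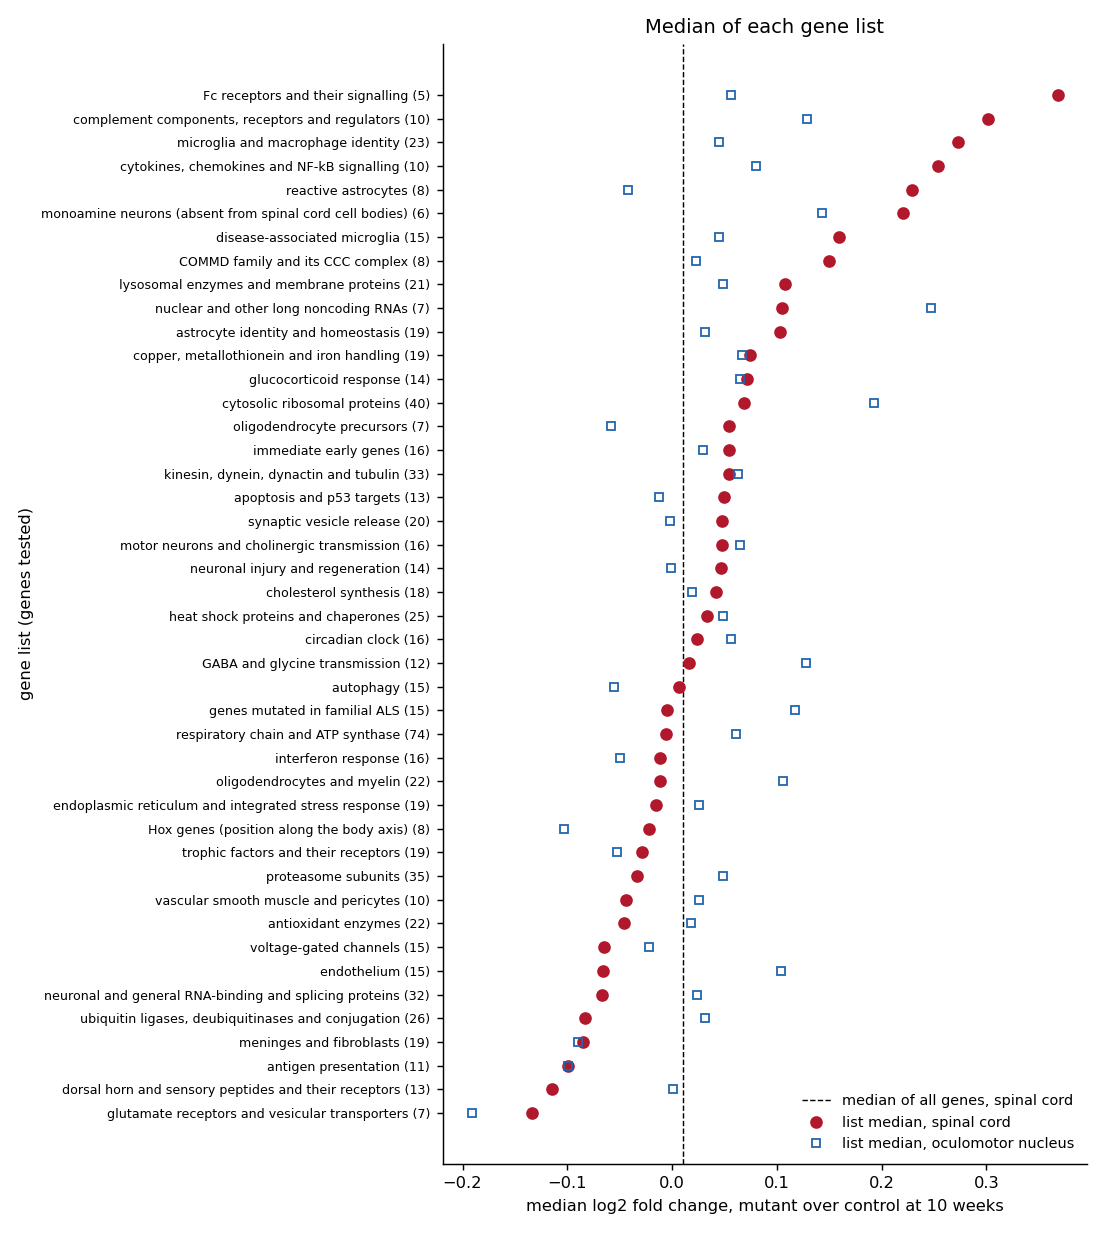
Median log2 fold change of mutant over control at 10 weeks (horizontal axis) of each gene list with at least 5 tested genes (vertical axis, number tested in brackets), with filled circles for spinal cord, open squares for the oculomotor nucleus and a dashed line at the median of all genes in cord (0.01). The Fc receptor (0.37), complement (0.30) and microglia (0.27) lists stood highest in cord.

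A mean change over 2-fold without overlap of the arrays was seen for 21 probe sets (0.155%), 15 higher and 6 lower, 18 of them with 1 symbol; only that of Commd1 was called. Arrays without overlap alone were common, in 3737 probe sets (27.5%). The genes named next were chosen after their values were seen. Malat1, a long RNA retained in the nucleus, read 418 and 212 in controls and 720, 2115 and 3171 in mutants on 1438403_s_at (2.41 ± 0.52, limma adjusted p = 0.099). Its 5 probe sets ran from 0.05 to 2.41. Mutant replicate 1 was the lowest mutant array there, and without it the difference was 3.01 (limma adjusted p = 0.0097). Mutant cord of 6 weeks read 3950, 2320 and 1267.

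Akap9, a large anchoring protein for protein kinase A at the Golgi and centrosome, read 85.5 and 50.4 in controls and 136, 168 and 252 in mutants on 1437082_at (1.17 ± 0.23, limma adjusted p = 0.094). Cbl, a ubiquitin ligase for growth factor receptors, read 167 and 125 in controls and 243, 298 and 285 in mutants on 1455886_at (0.82 ± 0.17, limma adjusted p = 0.094). Ubxn2a read 269 and 235 in controls and 375, 561 and 714 in mutants on 1425019_at (1.01 ± 0.26, limma adjusted p = 0.17), and its brighter probe set 1425020_at lay at -0.20 ± 0.11. On 1437082_at, 1455886_at and 1425019_at the arrays were separated, and each was called without mutant replicate 1 and in the oculomotor nucleus. The groups overlapped on the other probe sets of Akap9 and Cbl. These lay at -0.05 ± 0.23 (Akap9, 1455151_at, too dim to be tested) and 0.21 ± 0.22 (Cbl, 1450457_at). On the lower side, Cap1, an actin-binding protein, read 1360 and 1602 in controls and 1096, 514 and 179 in mutants (-1.59 ± 0.54, limma adjusted p = 0.28), and the mutants spread over a wider range than the gap to the controls. Elp2, a subunit of the elongator complex, read 206 and 223 in controls and 32.7, 95.1 and 102 in mutants on 1415774_at (-1.32 ± 0.33, limma adjusted p = 0.16), while its other probe set lay at 0.10 ± 0.10.

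The oculomotor nucleus was measured on arrays of its own, though not necessarily from other animals. There 200 probe sets (1.47%) passed the threshold, with 141 higher (1.04%) and 59 lower (0.435%) in mutants. The cre spike control read 9080, 10774 and 12884 on the 10-week oculomotor controls and 15977, 18643 and 17786 on the mutants. Its part in these calls was not tested. In cord 186 of the 200 probe sets (93%) had the same sign, against 60.4% of all probe sets tested. Of the 200, 95 (47.5%) also had an unadjusted p under 0.05 in cord. None had an unadjusted p under 0.05 in the opposite direction. For 194 of the 200 the difference was larger in the oculomotor nucleus, where the probe sets had been chosen for their difference. Of the 51 probe sets called in cord without mutant replicate 1, 40 were also called in the oculomotor nucleus in that same fit. Those with the smallest p among the 51, beside Pja2 and Celf4, included probe sets of Scaf11 (1452885_at, 0.95) and of the aminopeptidase gene Npepps (1417385_at, 1.00). Each had a limma adjusted p of 0.0050. Both genes had another probe set in the opposite direction with all cord arrays in the fit. These lay at -0.33 ± 0.13 (Scaf11, 1452884_at) and -0.36 ± 0.13 (Npepps, 1417386_at).

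**Figure D4:**
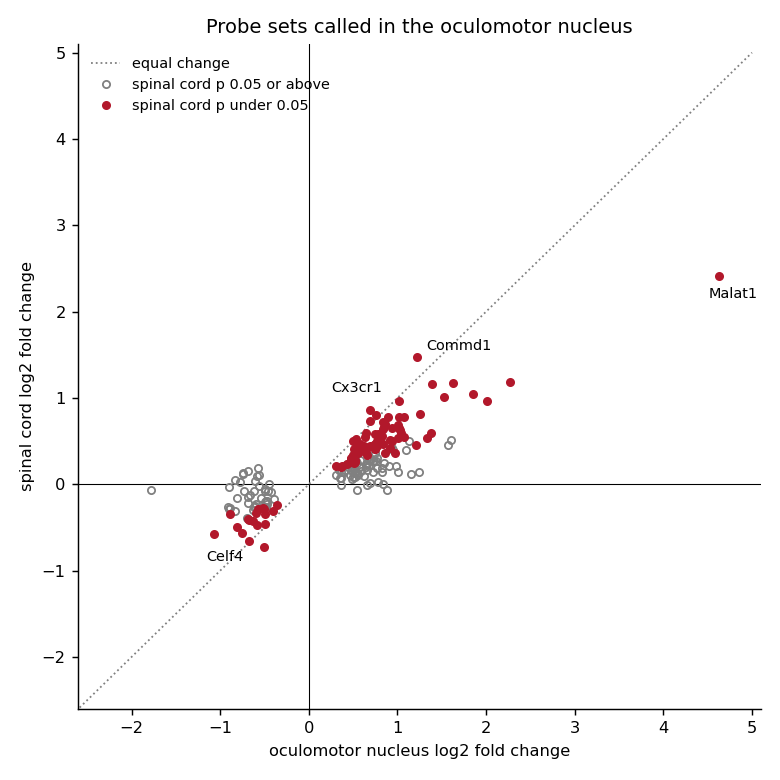
Log2 fold change of mutant over control at 10 weeks in the oculomotor nucleus (horizontal axis) and in spinal cord (vertical axis) for the 200 probe sets called in the oculomotor nucleus; filled points had an unadjusted p under 0.05 in cord and the dotted line marks equal change. Of the 200, 186 lay in the quadrants of equal sign, and Malat1 stood at 4.63 and 2.41.

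The genotype difference was not called as different between the regions for any probe set (0 of 13575, 0% in limma), and unadjusted p was under 0.05 for 835 (6.15%). The smallest p values were those of Atox1 and Spata5, each with a limma adjusted p of 0.39. Atox1 read 1703 and 1541 in control cord and 1119, 1136 and 1165 in mutant cord on 1415760_s_at, and 928, 926 and 1003 in control and 1046, 1081 and 1199 in mutant oculomotor nucleus. The genotype difference was thus -0.50 ± 0.10 in cord and 0.21 ± 0.09 in the oculomotor nucleus. Spata5, an ATPase of ribosome assembly, read 404 and 357 in control cord and 726, 795 and 786 in mutant cord (0.97 ± 0.19), against -0.34 ± 0.17 in the oculomotor nucleus. Mutant cord of 6 weeks read 443, 387 and 439 for Spata5, near the controls.

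Opposite directions of probe sets of 1 gene, as in Pja2, were seen in other genes too. Of 3000 genes with at least 2 tested probe sets, 95 had 2 or more at an unadjusted p under 0.05 (all probe sets tested: 11.7%). In 33 of these 95 the probe sets lay in opposite directions. Whether that is more than unrelated probe sets would give was not tested. The same opposite signs were found in the oculomotor nucleus for 23 of the 33. Over all single probe sets tested, 60.4% had the same sign in both regions. In 5 genes (Celf2, Clcn3, Lpgat1, Nfib and Pja2) both probe sets also had an unadjusted p under 0.05 in the oculomotor nucleus. In no gene were both signs turned there. Map1b, a microtubule-associated protein of growing axons, had the widest gap among the 33. Its probe set 1450397_at read 470 and 355 in controls and 595, 1026 and 1421 in mutants (1.18 ± 0.30), and 1421850_at read 602 and 613 in controls and 305, 398 and 322 in mutants (-0.79 ± 0.24). For both the arrays were separated. Celf2, a splicing regulator related to Celf4, lay at 0.64 ± 0.13 on 1423895_a_at and -0.38 ± 0.14 on 1451154_a_at (-0.25 without mutant replicate 2). The catalase gene Cat lay at 0.67 and -0.29 on its 2 such probe sets, the latter -0.14 without control replicate 2 and -0.44 without control replicate 3.

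**Figure D5:**
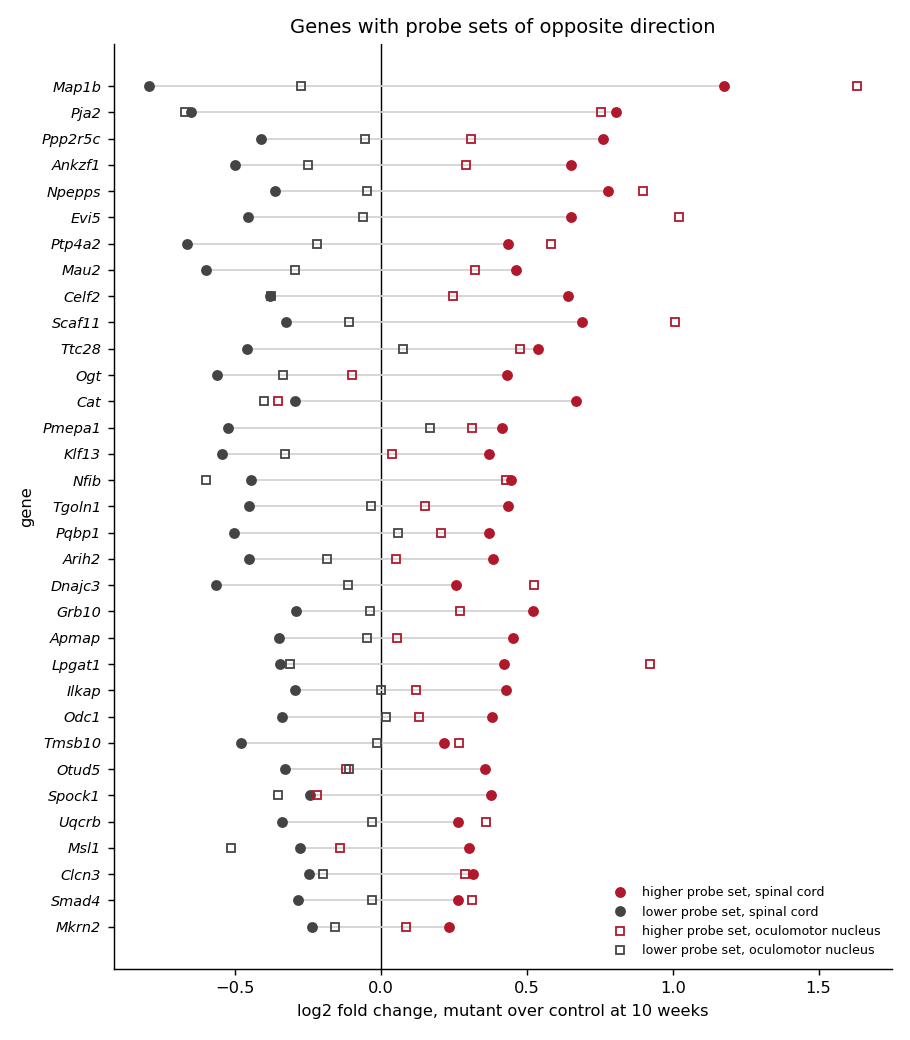
Log2 fold change of mutant over control at 10 weeks (horizontal axis) of the higher and the lower probe set of the 33 genes (vertical axis) whose probe sets lay in opposite directions at an unadjusted p under 0.05 in cord, with filled circles for spinal cord, open squares for the oculomotor nucleus and grey lines joining the cord values. Map1b ran from -0.79 to 1.18 and Pja2 from -0.65 to 0.81 in cord.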

How the data were processed

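The deposited values are intensity signals on a linear scale, which the authors computed with Affymetrix Microarray Suite software, per the series' design text and the submitters' processing notes; the scaling used is not given in the sources used here. The table held 22690 probe sets, of which 64 control probe sets were left out. Values were analysed as log2(signal + 25) without renormalizing. A filter removed the dimmest 40% by mean over 17 arrays (limit 7.38 on that scale) and kept 13575 probe sets. Gene symbols came from the array's annotation, updated through gene identifiers: 20380 probe sets had 1 symbol, 691 several and 1555 none. A mean per group was fitted over 17 arrays with limma 3.58.1 in R 4.3.3 (eBayes with a trend, 11 residual degrees of freedom). Benjamini-Hochberg adjustment ran over all probe sets tested. The other 12 arrays share the estimate of the spread. A list's gene is represented by its brightest probe set. The members, the gene lists, the tests and the named genes were chosen with earlier results of these data known. Named genes are those called, up to 4 per list with the smallest p, Sod1, Cx3cr1, C1qb, Fcgr3 and Celf4. All others were chosen after their values were seen, also where the text does not say so. Among these are Gfap, Prph, Slc18a3, Xist, and genes with little difference such as Tmem119 and P2ry12. The fit was tested on simulated data. The number of arrays limits the precision: an exact permutation test of 3 against 2 arrays cannot give a p below 0.1. Alternatives were the offset, filter, normalization, trend, arrays in the fit, replicate block, Gapdh covariate, leaving out each array, and the authors' rule of 1 direction in every pairwise comparison with a mean change over 2-fold, applied here to the signals.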

Additional observations from a re-analysis of the deposited data

Results flagged for a closer look

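Mutant spinal cord replicate 1 carried bacterial spike signals that the control arrays of 10 weeks lacked. The dap spike read 2692.8 there, against at most 3.3 on the control arrays, thr 961.6 against at most 26.9, phe 476.9 against at most 72.3, and lys 315.1 against at most 31.7. These probe sets were left out of all comparisons. Their part in the gene results was not tested.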

How the results depend on the processing

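Besides the main count of 3 called probe sets, the count was 1 with a 2-fold minimum, 1 without a trend in eBayes, 1 with only the 5 arrays compared, 5 with 1 probe set per gene (all higher, without Celf4, whose brightest probe set lies at -0.05), 5 with no filter, 21 under the pairwise rule, 27 with the Gapdh 3′ to 5′ ratio as a covariate and 0 with the 18 arrays that include control replicate 1 (1923 at an unadjusted p under 0.05 in limma). With single cord arrays left out it ran from 0 to 51. The causes of these shifts were not tested. With quantile normalization 2 were called, and median centring, the offset of 100, the floor and the 60% filter each gave 3. The genotype by region count was 0 under every alternative run. Celf4 also lost its call with quantile normalization (limma adjusted p = 0.056).

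Whether replicate numbers pair the samples was not settled by the values. Deviations of same-numbered control and mutant cord arrays correlated at 0.0381 and 0.0038, those of control cord and control oculomotor arrays at 0.1297 and 0.0814, and those of mutant cord and mutant oculomotor arrays at -0.068, -0.0614 and 0.0079. Xist (above) and Hspa1b, chosen after its values were seen, followed the number in controls of both regions. Hspa1b (1427126_at) read 108 in cord and 97.9 in the oculomotor nucleus on replicate 2, and 507 and 405 on replicate 3. On replicates 1 to 3 the 10-week mutants read 238, 202 and 965 in cord and 333, 197 and 636 in the oculomotor nucleus. The 6-week mutants read 202, 682 and 520 in cord and 154, 320.5 and 211 in the oculomotor nucleus. In both mutant groups the order of the replicates was thus the same in both regions for this probe set. Shared animals were not tested, and the fit with the replicate number as a block (replicate block) called 3.

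Of 50 results on single probe sets, 772 values under alternatives kept direction and side of the threshold, 19 lost and 17 gained a call, and 17 turned sign. Sod1, near 0, turned to -0.066 with quantile normalization and ran from -0.080 to 0.153 with single arrays left out. With the 18 arrays, 13 turned: Pja2 (1452328_s_at) to 0.94, Slc2a5 to -0.24, Ccl4 to -0.12, Glul to 1.80, Adamts4 to 0.21, Gphn to 0.018, Slc32a1 to 0.13, Tac1 to 0.24, Vamp2 to 1.00, Son to 0.68, Celf2 to 0.47, Sod2 to 0.51 and Cat to 0.83. Of 44 list medians, 20 of 484 values moved by more than the spread between arrays.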
